A study of Mus musculus with 2 samples.

Results

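The mouse collagen alpha chain genes were taken as every gene row whose symbol reads Col, a type number, the letter a and a chain number, which gave 44 of the 33696 rows. Their transcripts were counted in 2 droplet single-cell libraries from Lewis lung carcinoma (LLC) tumours, a transplantable mouse lung carcinoma line, 1 from tumours in wild-type mice (WT) and 1 from tumours in Dusp2-/- mice (KO). Dusp2 encodes a phosphatase of the MAP kinase pathway, the deletion is that of the host mouse, and the labels name no edit of the implanted tumour cells. The labels call the material tumour-infiltrating lymphocytes of the mouse. They differ in the molecule they name, polyA RNA in the KO library but total RNA in the WT one, while both name the same 3' kit (version 3.1). The sources used here give no strain, age, sex, time after implantation or number of animals per library. With 1 library per genotype there was no replicate of either genotype, so no difference between WT and KO was tested, and difference of genotype and difference between libraries cannot be told apart.

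Collagens are proteins in which 3 alpha chains wind into a triple helix. Fibril-forming collagens such as types I, III and V build the tensile fibres of connective tissue, type IV builds the sheet of the basement membrane, type VI forms beaded filaments near cells, and smaller families link fibrils to each other or anchor epithelium to the tissue below. In tumours most fibrillar collagen is made by fibroblasts, and carcinoma cells that have taken on mesenchymal traits can add chains of their own.

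After filters on genes per cell, mitochondrial share and doublets, 9637 WT and 11359 KO cells were kept, with a median of 8533 and 4852 UMIs (unique molecular identifiers, 1 per captured transcript). Collagen made up 1349 UMIs per 1000000 UMIs (CPM) in the kept WT cells and 990.0 in the kept KO cells. The libraries shared 31 barcodes, 28 among kept cells, of which 1 was a fibroblast-like or tumour cell in both. Fibroblast-like cells were 1 cluster without its Rhox5-positive cells (139 WT and 130 KO cells left) in which all 22 of the 22 fibroblast markers, none of them a collagen, were detected in each library, with a summed level of 33810 and 35600 CPM. The first tumour state was set by 3 or more UMIs of Rhox5, a reproductive homeobox gene active in LLC cells, and held 1595 WT and 1502 KO cells. The second was set by 0 UMIs of Rhox5 with 2 or more of Hmga2, an oncofetal chromatin protein, and held 62 and 35 cells. Macrophage-like cells numbered 5164 and 2027, T-like cells 1344 and 2295, and B-like cells 14 and 3850, so the libraries held more than the lymphocytes of the label and in different proportions. Dusp2, read as the check of the labels, stood at 45.1 and 1.12 CPM in the fibroblast-like cells of WT and KO and at 68.0 and 1.73 CPM in the macrophage-like cells. In the Rhox5-positive tumour cells it stood at 76.5 and 75.7 CPM. Below, each level is the sum of a gene's UMIs over the cells of a class, per 1000000 UMIs of that class, and each ratio is KO over WT. The 95% intervals are exact and cover counting error only. Because a 3' library yields 1 tag per transcript, levels of different chains were compared without division by length.

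Collagen filled 37170 CPM of the fibroblast-like cells in WT (interval 36840 to 37500), whereas KO stood at 47930 CPM (47480 to 48390). In the Rhox5-positive tumour cells WT stood at 2081 CPM (2067 to 2094) and KO at 1275 CPM (1263 to 1287). Thus the class with most collagen was higher in the KO library, by 1.29-fold and a log2 ratio of 0.37 (0.35 to 0.39), and the tumour cells were lower in it, with a log2 ratio of -0.71 (-0.72 to -0.69). In macrophage-like cells WT stood at 66.3 CPM (64.0 to 68.7) and KO at 45.7 CPM (42.3 to 49.3).

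**Figure D1:**
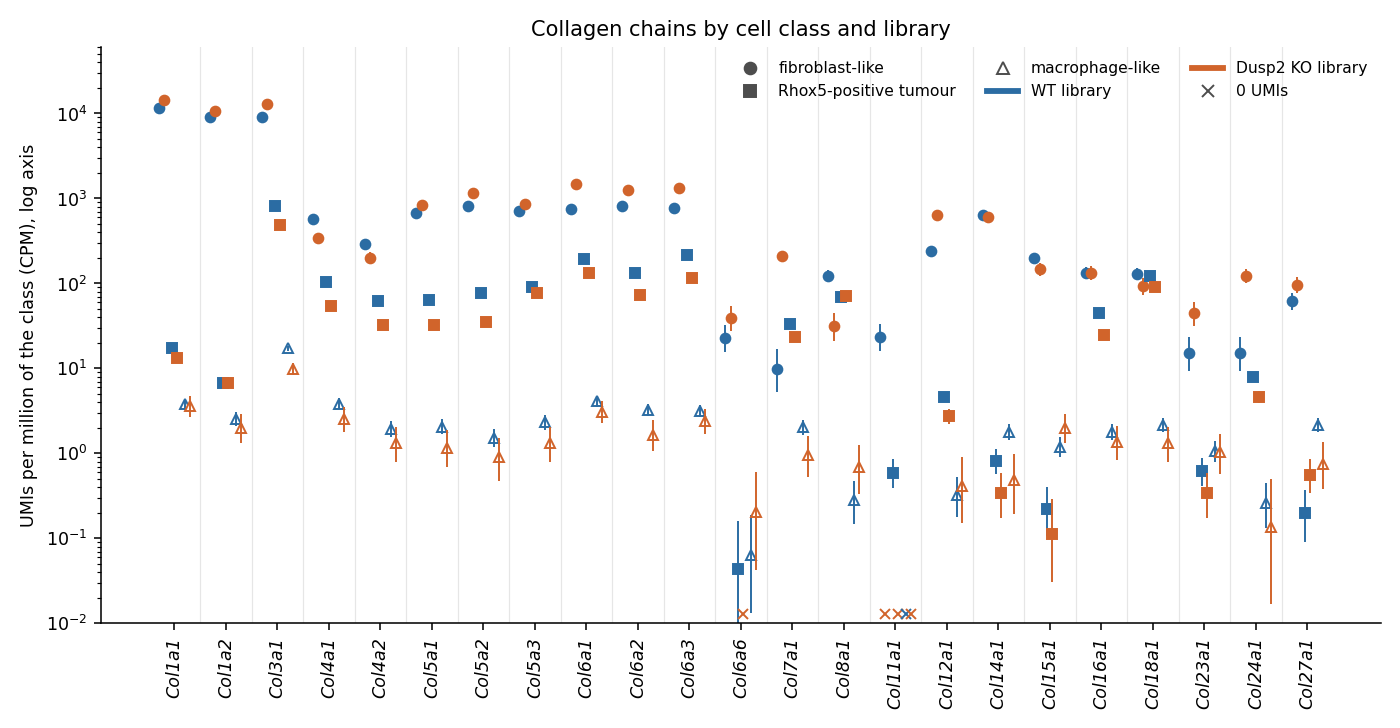
Level of each collagen chain that reached 20 CPM in at least 1 library of fibroblast-like cells (circles), Rhox5-positive tumour cells (squares) or macrophage-like cells (open triangles), in CPM on a log axis, with exact 95% counting intervals, WT in blue and KO in orange, and crosses at the lower edge for 0 UMIs. Col1a1 and Col1a2 lie between 9171 and 14560 CPM in fibroblast-like cells and between 6.68 and 17.5 CPM in the tumour cells, and Col3a1 between 482 and 825 CPM in the tumour cells.

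Per cell, the collagen share of all UMIs had a median of 2.84% in WT and 2.97% in KO fibroblast-like cells, with the middle 50% of the cells between 1.38% and 4.71% in WT and between 1.09% and 5.67% in KO. The highest cell reached 10.9% in WT and 12.6% in KO. The KO cells were thus spread more widely on both sides, and their median was close to that of WT. In Rhox5-positive tumour cells the median was 0.177% in WT and 0.102% in KO, and the upper quartile of the KO cells (0.162%) lay below the median of the WT cells. The log2 ratio of the fibroblast-like class was 0.16 when each cell was given the same weight, 0.23 when no doublets were left out, and 0.63 when cells were taken by a per-cell gate of at least 3 fibroblast markers and no Ptprc UMI in place of the cluster, so its direction was the same and its size was not. Median depth differed in the same classes, at 7736 UMIs in WT and 4554 in KO for fibroblast-like cells and 28580 and 19460 for Rhox5-positive cells.

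**Figure D2:**
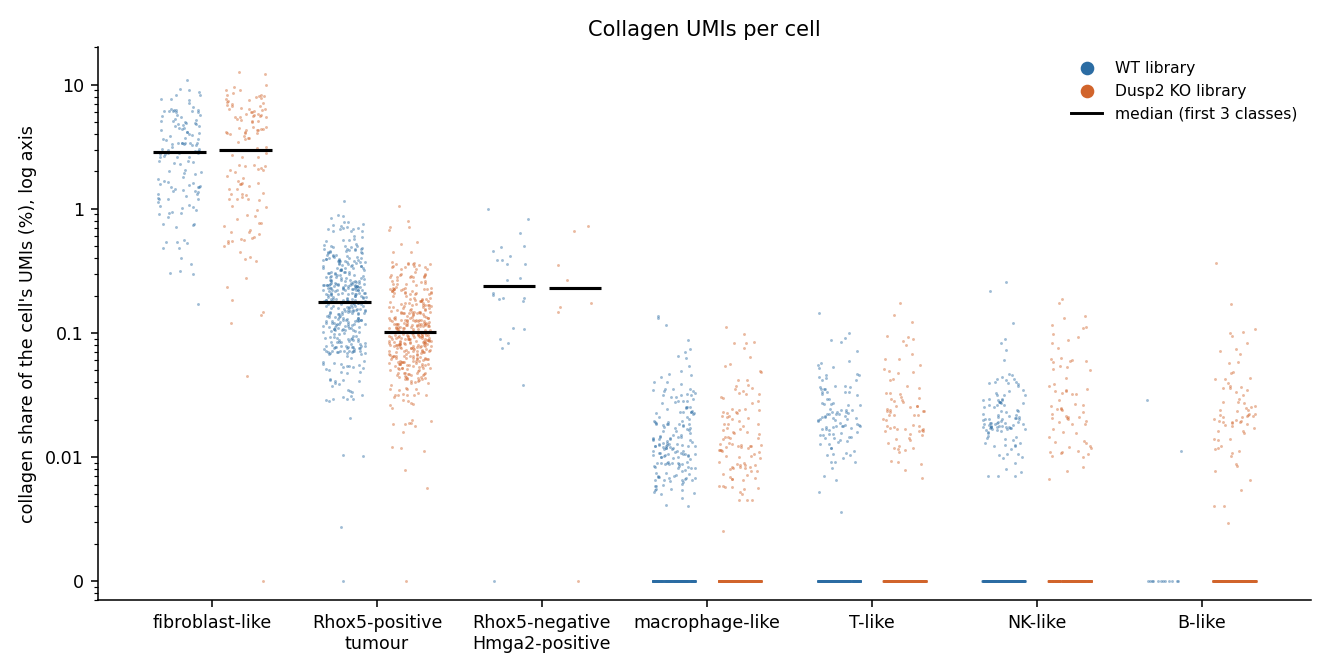
Collagen share of the UMIs of single cells (percent, log axis, cells without a collagen UMI drawn at 0), WT in blue and KO in orange, with at most 400 cells drawn at random per class and library, all cells for the fibroblast-like and the Rhox5-negative Hmga2-positive class (the cells of that gate in tumour-like clusters), and bars at the median of all cells in the first 3 classes. The medians of fibroblast-like cells lie at 2.84% and 2.97% and those of Rhox5-positive cells at 0.177% and 0.102%.

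The fibril-forming chains made up 87.2% of the collagen UMIs of fibroblast-like cells in WT and 86.2% in KO. Col1a1 (chr11:94936224-94953042 in GRCm38), a chain of type I collagen, the main fibre of connective tissue, counted 11700 CPM in WT and 14560 in KO, a log2 ratio of 0.32 (0.28 to 0.35). Col1a2 (chr6:4504814-4541544), the other chain of type I, counted 9171 and 10640 CPM, a log2 ratio of 0.21 (0.18 to 0.25), which turned to -0.18 when every cell was weighted the same. Col3a1, the chain of type III, which lies with type I in extensible tissue, counted 9218 and 13040 CPM, a log2 ratio of 0.50 (0.46 to 0.54). These 3 chains made up most of the class's collagen, type I giving 56.2% of it in WT and 52.6% in KO and type III 24.8% and 27.2%. The chains of type V, which sits in the core of type I fibrils and sets their width, stood higher in KO as well: Col5a1 counted 678 and 839 CPM, Col5a2 818 and 1164 CPM, and Col5a3 707 and 872 CPM, with log2 ratios of 0.31, 0.51 and 0.30. Col27a1, a fibrillar chain known from cartilage, counted 62.0 CPM in WT and 97.2 in KO.

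Over the whole class, the counted type VI chains had higher KO over WT ratios than the chains of types I, III and V. For Col6a2 and Col6a3 this depended on a few KO cells described below. Col6a1 counted 753 CPM in WT and 1470 in KO, a log2 ratio of 0.97 (0.84 to 1.09), just under the 2-fold mark. Col6a2 counted 821 and 1265 CPM and Col6a3 767 and 1325 CPM, with log2 ratios of 0.62 and 0.79. Col6a6, a further type VI chain, counted 22.9 and 39.1 CPM, a log2 ratio of 0.77 that turned to -0.99 when each cell was thinned. The share of type VI in the collagen of the class was 6.395% in WT (6.18 to 6.62) and 8.56% in KO (8.30 to 8.83). In 9 KO cells that met the Hmga2 gate, Col6a1, Col6a2 and Col6a3 gave 434, 327 and 381 of 5965 collagen UMIs. In the other 121 KO cells they gave 882, 805 and 805 of 36933, beside 973, 1051 and 979 of 47741 in 135 WT cells. Much of the difference in share thus lay in those 9 cells. In the class as a whole, basement membrane chains went the other way. Col4a1 counted 574 CPM in WT and 343 in KO, a log2 ratio of -0.74 (-0.94 to -0.55), and Col4a2 counted 289 and 200 CPM, a log2 ratio of -0.53 (-0.80 to -0.27). Among the multiplexins, basement membrane proteoglycans whose ends are cut off as endostatin-like fragments, Col15a1 counted 202 and 148 CPM and Col18a1 129 and 92.7 CPM. Of the fibril-associated chains, Col14a1 counted 636 and 610 CPM and Col16a1 134 and 133 CPM, with intervals of the log2 ratio that include 0 (-0.22 to 0.10 and -0.36 to 0.33).

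In fibroblast-like cells 24 of the 44 members had the 20 UMIs over both libraries that were asked for before a gene was counted; 13 fell under that minimum and 7 had no UMI. Of the 24, 15 were higher and 9 lower in KO, with a median log2 ratio of 0.31, beside -0.04 over all counted genes. Past 2-fold, 4 members were higher, where 4.1% of all 8487 counted genes were, and 2 were lower, where 4.69% were. The 4 were Col7a1, Col24a1, Col23a1 and Col12a1. Col7a1, the chain of the anchoring fibrils that tie basement membrane to connective tissue, counted 9.94 CPM (13 UMIs in 7 cells) in WT and 209 CPM (187 UMIs in 27 cells) in KO, a log2 ratio of 4.39 (3.58 to 5.33). Col24a1, a minor fibrillar chain, counted 15.3 CPM (20 UMIs) and 122 CPM (109 UMIs), a log2 ratio of 2.99 (2.30 to 3.76). Col12a1, a fibril-associated chain found in tissue under load, counted 240 and 639 CPM, a log2 ratio of 1.41 (1.21 to 1.61). Col23a1, a chain that spans the cell membrane, counted 15.3 and 44.7 CPM, a log2 ratio of 1.55 (0.74 to 2.40). The WT and KO counting intervals of these 4 chains did not overlap, but the 4 were picked by their ratio, so this adds no separate support. The share of all genes with such intervals was not counted, and the intervals leave out differences between cells and libraries.

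The members lower past 2-fold in KO rested on few cells. Col8a1, a short-chain collagen of vessel walls, counted 122 CPM (160 UMIs in 24 cells) in WT and 31.3 CPM (28 UMIs in 5 cells) in KO, and 24 of the 28 KO UMIs lay in 1 cell. Without the cell with most collagen in each library its log2 ratio went from -1.97 to -4.71. Col11a1, a cartilage fibril chain that is also a known mark of some tumour fibroblasts, counted 31 UMIs in WT and 0 in KO, which is at least 7.07-fold lower in KO against a floor of 3 UMIs over the class. Of the 31 WT UMIs 28 lay in 1 cell, so the chain was present in 3 cells of the WT class and not detected in the KO class.

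A small group of deep cells carried much of the KO level of Col7a1, Col24a1 and Col12a1. In the fibroblast-like cluster 4 WT and 9 KO cells also met the Hmga2 gate, with 0 Rhox5 UMIs. The gate counts UMIs and favours deep cells: the median was 15080 UMIs in the 9 KO cells and 4001 in the other 121. In the 9 KO cells Col7a1 stood at 800 CPM and gave 104 of the 187 KO UMIs of the class. Col24a1 stood at 408 CPM in them, with 53 of 109 UMIs, and Col12a1 at 1808 CPM, with 235 of 572. The same 9 cells were high in Col6a1 (3339 CPM) and Col5a3 (1654 CPM) and low in Col4a1 (61.6 CPM) and Col14a1 (69.3 CPM), as set beside 1153, 739, 391 and 702 CPM in the other 121 KO cells. In the 4 WT cells Col7a1 had 1 UMI and Col24a1 had 0, and 1 of these cells held 77.3% of their collagen. Without all cells of the gate Col7a1 counted 9.56 CPM in WT and 108.5 in KO, a log2 ratio of 3.51, and Col24a1 15.9 and 73.2 CPM, a log2 ratio of 2.20. Col12a1 then counted 242 and 441 CPM, a log2 ratio of 0.86, and was no longer past 2-fold. KO cells under the gate also held these chains, so leaving out the gate did not remove all cells with this profile. A cell with 1 Hmga2 UMI had 17 Col7a1, 34 Col12a1 and 10 Col24a1 UMIs. Another, with 0 Hmga2 UMIs, had 21, 17 and 9.

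Other features of the fibroblast-like class moved with the libraries. Erythroid markers summed to 3.82 CPM in WT and 1460 CPM in KO. B cell markers summed to 6.12 and 187 CPM. Monocyte or macrophage markers summed to 1391 and 1970 CPM (18 of 18 in each library), and pericyte or smooth muscle markers to 53.5 CPM (Myh11 and Cnn1 at 0) and 60.3 CPM (Notch3 and Cnn1 at 0). Acta2, the actin of contractile fibroblasts, counted 60.4 and 8.94 CPM. The part of these features in the collagen levels was not tested, except that a denominator without mitochondrial, ribosomal, haemoglobin and immunoglobulin genes gave Col7a1 a log2 ratio of 4.40. Cells with a UMI of Pi16, Dpt or Ly6c1, marks of the universal fibroblast, were 94.96% of the class in WT (89.9 to 98.0) and 81.5% in KO (73.8 to 87.8), with 37520 and 50450 CPM of collagen. Cells with a UMI of a pericyte marker were 28.1% (20.8 to 36.3) and 22.3% (15.5 to 30.4), with 37830 and 58170 CPM. Acta2, Tagln, Postn and Cthrc1 were taken as marks of the contractile or matrix fibroblast. A UMI of at least 1 was found in 80.58% of WT cells (73.0 to 86.8) and 86.15% of KO cells (79.0 to 91.6). These cells held 37640 and 50430 CPM of collagen, and their share, unlike the level of Acta2, was not lower in KO. Collagen was thus higher in KO inside each of these overlapping gates as well. The shares of cells in these gates were read at full depth and not after thinning. The class had a median of 7736 UMIs in WT and 4554 in KO, so the shares are not read as a difference in make-up.

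Across the single fibroblast-like cells, as a description, the chains of type I varied together, with a Spearman correlation of Col1a1 and Col1a2 CPM of 0.91 over 139 WT cells and 0.92 over 130 KO cells, and Col3a1 followed Col1a1 at 0.77 and 0.89. Col4a1 did not follow Col1a1 (-0.03 and -0.04) and followed Col4a2 at 0.64 and 0.54. Col14a1 and Col1a1 gave 0.04 in WT and 0.58 in KO. All cells of a library share its depth and free RNA.

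The Rhox5-positive tumour cells made another mix of chains. Type III gave 39.7% of their collagen UMIs in WT and 37.8% in KO, and type VI 26.2% and 25.1%. Col3a1 was their most abundant chain, at 825 CPM in WT and 482 in KO, a log2 ratio of -0.78 (-0.80 to -0.75). Among type VI chains Col6a3 counted 216 and 115 CPM, Col6a1 196 and 131 CPM, and Col6a2 133 and 72.3 CPM, with log2 ratios of -0.90, -0.58 and -0.88. All 4 of these chains were therefore lower in the KO library, each with an interval that lies below 0. Type I was nearly missing: Col1a1 counted 17.5 and 13.4 CPM and Col1a2 6.73 and 6.68 CPM. Much of that came from a few gated cells that lay in the fibroblast-like cluster, 4 in WT and 3 in KO, which held 396 of the 796 Col1a1 UMIs and 246 of the 306 Col1a2 UMIs in WT, and 345 of 475 and 205 of 237 in KO. The gated cells inside tumour-like clusters counted 8.84 and 3.46 CPM of Col1a1 and 1.32 and 0.74 CPM of Col1a2, with 824 and 474 CPM of Col3a1.

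The remaining chains of the Rhox5-positive cells were lower in KO as well, with few exceptions. Col5a1 counted 63.8 and 32.5 CPM, Col5a2 76.9 and 34.9 CPM, and Col5a3 91.3 and 76.5 CPM. Col4a1 counted 104 and 54.2 CPM and Col4a2 61.5 and 32.8 CPM, with log2 ratios of -0.94 and -0.91. Col18a1 counted 121 and 90.5 CPM, Col16a1 45.2 and 24.7 CPM, and Col7a1 33.4 and 23.6 CPM. The exception among abundant chains was Col8a1, at 69.8 CPM in WT and 71.7 in KO, a log2 ratio of 0.04 (-0.04 to 0.11). Of the 44 members 28 had 20 UMIs or more, 13 fell under that minimum and 3 had none; of the 28, 4 were higher and 24 lower in KO, with a median log2 ratio of -0.77, beside -0.06 over all counted genes. Past 2-fold, 2 were higher, where 2.92% of all 15201 counted genes were, and 5 were lower, where 4.88% were. Of those 7 only Col5a2 (log2 ratio -1.14, -1.23 to -1.04) was abundant. Col9a3 was lower with a log2 ratio of -1.42 on 48 and 14 UMIs, but higher (0.51) when each cell was thinned to 2000 UMIs. Col4a4, Col27a1, Col8a2, Col11a1 and Col14a1 each had at most 37 UMIs in a library, and 24 of the 27 Col11a1 UMIs of WT lay in 1 cell.

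**Figure D3:**
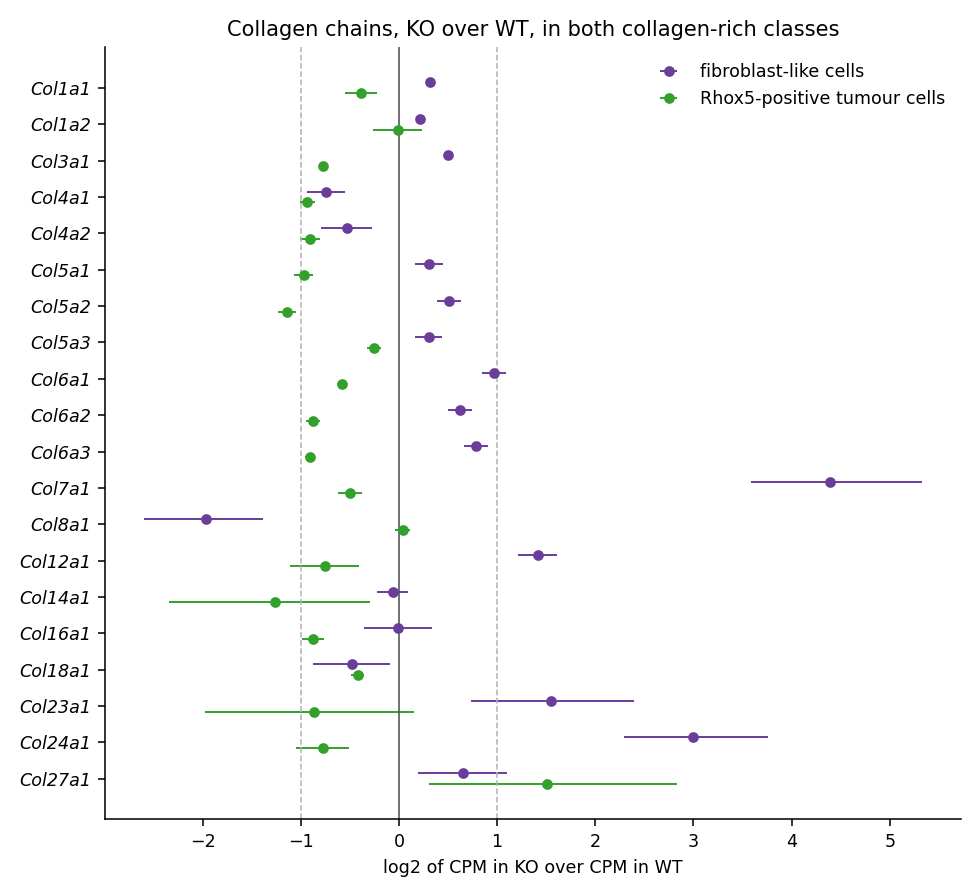
Log2 ratio of KO over WT CPM, with exact 95% counting intervals, for the collagen chains with 20 UMIs or more and at least 1 UMI per library in both fibroblast-like (purple) and Rhox5-positive tumour cells (green); dashed lines mark 2-fold. The drawn chains of types I, III, V and VI lie right of 0 in fibroblast-like cells and left of 0 in the tumour cells, where the interval of Col1a2 includes 0, and Col4a1 and Col4a2 lie left of 0 in both.

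Of 17 chains with 50 UMIs or more in both fibroblast-like and Rhox5-positive cells, 11 were higher in KO in the former and lower in the latter with both intervals clear of 0, where 3.94% of 5478 genes were. None was the other way round, where 2.25% were.

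The Rhox5-positive cells fell into 4 tumour-like clusters, numbered 11, 12, 15 and 18, whose shares differed between the libraries. Cluster 15, led by Pvt1, Igfbp4 and Ccl2 among others, had most collagen, at 3641 CPM in WT and 2489 in KO, and held 33.04% of the gated cells in WT and 13.7% in KO. Cluster 11 counted 1441 and 1124 CPM, cluster 12 counted 1667 and 790 CPM, and cluster 18 counted 1201 and 945 CPM. Collagen was therefore lower in KO within each of the 4 clusters, with log2 ratios of -0.36, -1.08, -0.55 and -0.35 in clusters 11, 12, 15 and 18. As a further step, each cluster's share of the WT UMIs, not of the cells, was given to both libraries. The log2 ratio over the 1584 WT and 1463 KO gated cells of these clusters was then -0.48. Without that step these cells counted 2062 and 1244 CPM. The log2 ratio over the whole gate, with its cells in other clusters, was -0.71. Of 16 chains with 20 UMIs or more in each cluster and at least 1 per library, 14 were lower in KO in all 4, where 25.9% of 8612 genes under the same rule were. Among the 14 were Col3a1 (log2 ratios from -1.30 to -0.28), Col4a1 (-0.85 to -0.76) and Col5a2 (-2.04 to -0.40). The exceptions were Col1a1 and Col8a1, the latter at 0.22 in cluster 11 and -2.41 in cluster 12. Cluster 12 held 115 WT and 32 KO cells of the gate, and its Col8a1 rested on 4 KO UMIs.

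**Figure D4:**
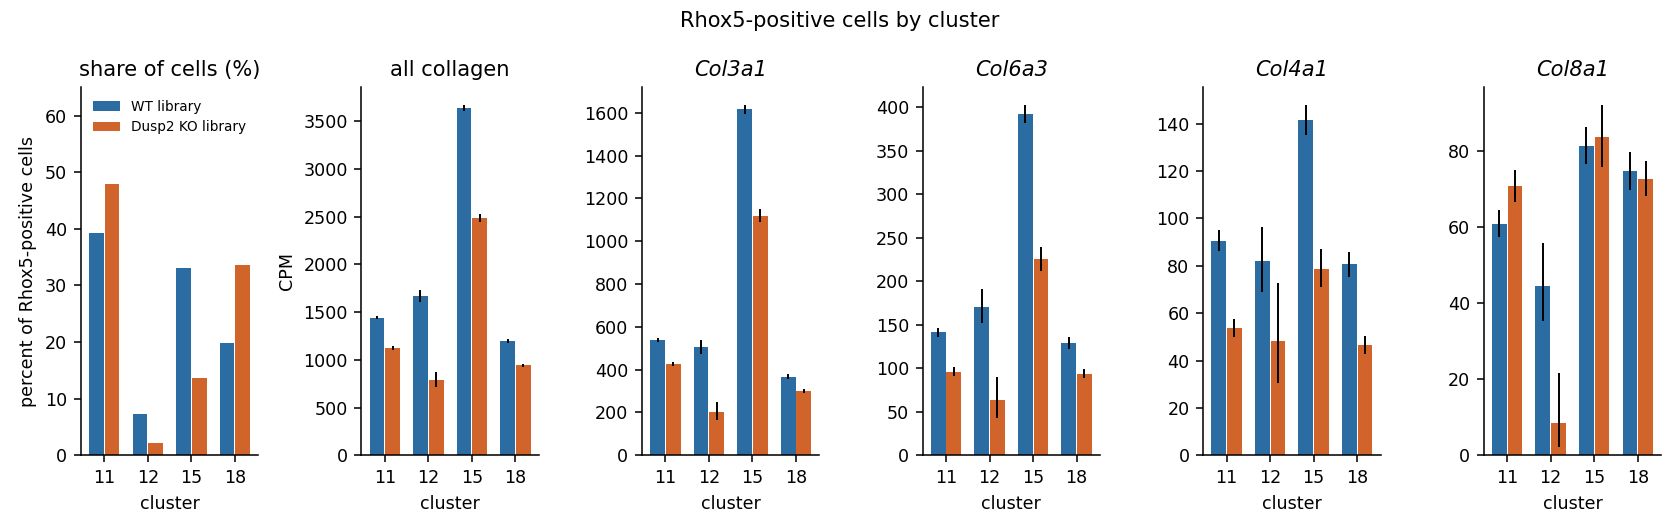
Share of the Rhox5-positive cells in each tumour-like cluster (left, percent) and the CPM of all collagen, Col3a1, Col6a3, Col4a1 and Col8a1 in each, WT in blue and KO in orange, with exact 95% counting intervals on the CPM bars. Cluster 15 holds 33.04% of WT and 13.7% of KO cells and has the highest collagen level of the 4 clusters in each library (3641 and 2489 CPM).

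The gate of the second tumour state gathered 3 kinds of cells. Of its 62 WT and 35 KO cells, 27 and 9 lay in tumour-like clusters, 4 and 9 in the fibroblast-like cluster and 31 and 17 in other clusters. Their collagen levels were far apart: 3175 and 2556 CPM in tumour-like clusters, 16660 and 45900 CPM in the fibroblast-like cluster, and 179 and 72.0 CPM elsewhere. Over the whole gate collagen stood at 2614 CPM in WT and 23800 in KO, a log2 ratio of 3.19 (3.11 to 3.26), and 15 of 19 counted members were higher past 2-fold and 2 lower, where 8.47% and 18.1% of all 6540 counted genes were. Within the tumour-like clusters the log2 ratio of collagen was -0.31 (-0.69 to 0.05). The direction over the whole gate thus followed the 9 KO cells of the fibroblast-like cluster, and the values below are those of the tumour-like clusters.

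In tumour-like clusters the Rhox5-negative Hmga2-positive cells had a median of 7904 UMIs in WT and 2025 in KO, and the KO cells held 68 collagen UMIs in all, 41.2% of them in 1 cell. Col3a1 counted 762 CPM (196 UMIs) in WT and 451 CPM (12 UMIs) in KO, with an interval of the log2 ratio from -1.73 to 0.08. Col6a3 counted 529 CPM and 113 CPM (3 UMIs in KO), and Col18a1 206 and 526 CPM (14 UMIs in KO). Of the 12 members with 20 UMIs or more, 3 were higher past 2-fold (Col6a1, Col6a2 and Col18a1), where 11.4% of all 2818 counted genes were, and 4 were lower (Col5a2, Col5a3, Col6a3 and Col8a1), where 24.9% were. Col5a2 had 80 UMIs in WT, 67.5% of them in 1 cell, and 0 in KO, which is at least 2.76-fold lower. Of 19 members counted against the Rhox5-positive state within each library, Col7a1 and Col20a1 were higher past 2-fold in both libraries, where 11.2% of 13100 genes were, and none was lower, where 2.79% were. Col7a1 stood at 105 CPM (27 UMIs) against 33.4 in WT and at 188 CPM (5 UMIs) against 23.6 in KO, and Col20a1 rested on 2 UMIs in WT and 1 in KO. Type I was at 1 UMI per chain in WT and 0 in KO. Both gates count UMIs, and the Rhox5-positive cells were deeper, with medians of 28580 UMIs in WT and 19460 in KO. The part of depth in the comparison of the 2 states was not tested.

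Set against the Rhox5-positive tumour cells of the same library, fibroblast-like cells were higher past 2-fold in both libraries for 19 of 24 counted members, where 17.8% of 13519 genes were, and lower for none, where 15.3% were. Type I chains stood far apart, Col1a1 by 669-fold in WT and 1088-fold in KO and Col1a2 by 1363-fold and 1593-fold. Col14a1 (782-fold and 1804-fold) and Col15a1 (918-fold and 1308-fold) stood as far apart, on 37 and 12 UMIs and 10 and 4 UMIs in the tumour cells. Tumour over macrophage-like log2 ratios were -1.135 in WT and -0.51 in KO for Col14a1 and -2.455 and -4.15 for Col15a1. In tumour-like clusters Col1a1 stood at 8.8 CPM in WT, against 3.8 in macrophage-like cells, and 3.5 against 3.6 in KO. Col1a2 was below macrophage-like cells there in both libraries, at 1.3 against 2.5 CPM in WT. Except for Col1a1 in WT, the tumour side was thus near or below the macrophage-like level, so the size of these folds is not interpreted. For Col3a1 the distance was 11.2-fold and 27.1-fold, and for Col4a1 5.55-fold and 6.34-fold. Of the 5 members without such a distance, Col18a1 was alike within counting error, with log2 ratios of 0.09 (-0.14 to 0.31) and 0.04 (-0.30 to 0.35). Col7a1 turned over between the libraries: it was lower in fibroblast-like than in tumour cells in WT, with a log2 ratio of -1.75, and higher in KO, with 3.15. Col8a1 turned the other way, at 0.81 in WT and -1.20 in KO.

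Chains that assemble together could be compared by the ratio of their UMIs. Col4a1 and Col4a2, which join as 2 chains of the first and 1 of the second, stood at 1.99 (1.75 to 2.25) and 1.72 (1.42 to 2.07) in fibroblast-like cells of WT and KO, at 1.69 (1.61 to 1.77) and 1.65 (1.54 to 1.78) in Rhox5-positive cells, and at 1.99 (1.54 to 2.59) and 1.95 (1.09 to 3.59) in macrophage-like cells. Col1a1 to Col1a2, of the same 2 to 1 make-up in the protein, stood at 1.28 (1.25 to 1.31) and 1.37 (1.33 to 1.41) in fibroblast-like cells. Col6a1 to Col6a2 was less steady, at 0.92 and 1.16 in fibroblast-like and 1.48 and 1.81 in Rhox5-positive cells. Col3a1 to Col1a1 set the classes apart, at 0.79 and 0.90 in fibroblast-like cells and 47.1 and 36.0 in Rhox5-positive cells.

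The genome places several of these chains side by side. In the GENCODE M21 annotation of GRCm38, Col4a1 (chr8:11198423-11312826, minus strand) and Col4a2 (chr8:11312805-11449287, plus strand) lie head to head with starts 21 bases apart, and Col4a3 with Col4a4 on chromosome 1 and Col4a5 with Col4a6 on X have the same layout, with starts 72 and 1309 bases apart. Col3a1 (chr1:45311538-45349706) and Col5a2 (chr1:45374321-45503282) lie tail to tail with 24614 bases between them. Col1a1 is on chromosome 11 and Col1a2 on chromosome 6, so the chains of type I are not neighbours. Shown next are the 250 bases before the RefSeq start (GRCm38.p6) of the head-to-head type IV pair, of Col1a2 and Col3a1, both abundant in fibroblast-like cells while the tumour cells held Col3a1 almost without Col1a2, and of Col7a1, the counted chain with the highest KO over WT ratio in fibroblast-like cells. RefSeq windows were found for 35 of the 44 members. Each is written 5′ to 3′ on the strand of its gene, and capitals mark matches on either strand to the CCAAT box, to the TATA box written as TATAAA, to the GC box written as GGGCGG and to the AP-1 letters TGANTCA, none of which overlap in these windows.
Col4a1 (chr8:11312827-11313076, minus strand): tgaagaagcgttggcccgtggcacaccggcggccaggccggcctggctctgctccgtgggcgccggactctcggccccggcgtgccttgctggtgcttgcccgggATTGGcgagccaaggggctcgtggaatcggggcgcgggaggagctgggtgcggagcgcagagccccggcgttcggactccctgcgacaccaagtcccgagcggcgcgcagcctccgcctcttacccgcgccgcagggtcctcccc
Col4a2 (chr8:11312555-11312804, plus strand): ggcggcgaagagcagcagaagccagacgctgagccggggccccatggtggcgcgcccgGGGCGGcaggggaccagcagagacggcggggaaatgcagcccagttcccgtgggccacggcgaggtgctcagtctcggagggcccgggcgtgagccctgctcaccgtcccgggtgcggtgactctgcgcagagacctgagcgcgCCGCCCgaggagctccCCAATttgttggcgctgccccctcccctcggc
Col1a2 (chr6:4505368-4505617, plus strand): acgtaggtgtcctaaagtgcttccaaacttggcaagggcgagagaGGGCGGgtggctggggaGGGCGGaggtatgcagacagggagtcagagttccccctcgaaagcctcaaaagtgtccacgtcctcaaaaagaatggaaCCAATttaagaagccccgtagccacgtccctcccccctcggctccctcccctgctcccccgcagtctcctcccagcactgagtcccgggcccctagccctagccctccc
Col3a1 (chr1:45311288-45311537, plus strand): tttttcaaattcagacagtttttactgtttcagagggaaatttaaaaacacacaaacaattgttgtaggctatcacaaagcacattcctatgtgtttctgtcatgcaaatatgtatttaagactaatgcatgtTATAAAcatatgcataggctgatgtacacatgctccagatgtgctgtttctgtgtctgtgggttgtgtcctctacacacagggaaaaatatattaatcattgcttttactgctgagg
Col7a1 (chr9:108953336-108953585, plus strand): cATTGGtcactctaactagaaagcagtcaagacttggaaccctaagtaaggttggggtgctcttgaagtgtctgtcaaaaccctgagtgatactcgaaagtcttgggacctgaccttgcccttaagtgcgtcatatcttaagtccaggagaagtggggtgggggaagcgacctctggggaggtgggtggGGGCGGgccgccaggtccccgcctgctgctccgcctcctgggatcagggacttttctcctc

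The windows of the type IV pair are separated by 22 bases and read towards each other, each lying within the span of the other gene, with a GC content of 74.4% and 73.6%. Each holds 1 CCAAT match, and that of Col4a2 also holds 2 GGGCGG matches, the letters bound by Sp1-like factors. Col1a2 holds 1 CCAAT and 2 GGGCGG matches at 62.0% GC, and its RefSeq start lies inside the GENCODE gene. Col3a1, with 35.2% GC, holds a TATAAA match and neither of the former. Col7a1 holds 1 CCAAT and 1 GGGCGG match. TGANTCA occurs in none of the 5. Over all 32851 windows of the table cut to the same 250 bases, CCAAT was found in 33.9%, TATAAA in 12.4%, GGGCGG in 32.7% and TGANTCA in 6.75%, and over the 38 windows of the members in 34.2%, 13.2%, 57.9% and 2.63%. A match is a description of the letters and not a binding site.

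Macrophage-like cells held few collagen UMIs, with Col3a1 highest at 17.3 CPM in WT and 9.86 in KO. The next member in WT was Col6a1 at 4.11 CPM, and in KO it was Col20a1, a fibril-associated chain, at 3.66 CPM. Of 24 counted members 4 were higher and 20 lower in KO, with a median log2 ratio of -0.48, beside -0.04 over all counted genes. Past 2-fold, 1 was higher (Col8a1, 13 and 10 UMIs), where 2.49% of all 14838 counted genes were, and 4 were lower (Col7a1, Col14a1, Col19a1 and Col27a1), where 2.79% were. T-like, NK-like, B-like and plasma-like cells, which are not known to make fibrillar collagen, together held 64.3 CPM in WT and 41.6 in KO. Macrophage-like cells differed from this pool by log2 ratios of 0.04 (-0.07 to 0.16) and 0.14 (0.00 to 0.27). The pool held 14 B-like and 0 plasma-like cells in WT, and 3850 and 344 in KO. In KO its B-like cells stood at 41.05 CPM and its plasma-like cells at 23.3 CPM. T-like (47.5 CPM) and NK-like cells (56.9 CPM) of KO were not below macrophage-like cells. At 2000 UMIs per cell, 3.503% of macrophage-like cells (3.004 to 4.06, n = 4853) and 3.12% of T-like cells (2.23 to 4.25, n = 1248) had a Col3a1 UMI in WT, and 2.56% (1.86 to 3.43, n = 1682) and 2.71% (2.002 to 3.59, n = 1731) in KO; before thinning the shares were 14.5% and 8.85% in WT and 6.86% and 6.01% in KO. The collagen of macrophage-like cells was thus close to that of cells that should lack it, and its difference between WT and KO is not read as expression. The level was lower in KO in T-like cells as well, at 62.8 and 47.5 CPM. NK-like cells stood at 68.0 and 56.9 CPM, with an interval of the log2 ratio that includes 0. Col4a1 was the exception, being above the lymphoid level beyond counting error in both libraries, at 3.85 against 1.71 CPM in WT and 2.55 against 0.97 CPM in KO.

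Of 83 listed genes that fold, export, trim, cross-link, bind or regulate collagen, 82 were in the files, and their median log2 ratio was -0.05 in fibroblast-like and -0.16 in Rhox5-positive cells, beside 0.31 and -0.77 for the chains. In fibroblast-like cells 72 were counted, 1 was higher past 2-fold (Adamts14, 16.8 and 38.0 CPM) and 4 were lower (Pcolce2, Loxl4, Mrc1 and Ccn2), beside the 4.1% and 4.69% of all counted genes. Serpinh1, the collagen chaperone of the endoplasmic reticulum, counted 1079 CPM in WT and 1239 in KO, and Hspa5, a general chaperone, 1813 and 1073 CPM. Pcolce2, which speeds propeptide cleavage, counted 294 and 127 CPM, and Ccn2, a matricellular target of TGF-beta and YAP signalling, 83.4 and 11.2 CPM. The cross-linking enzymes Loxl1 (510 and 475 CPM) and Lox (272 and 255 CPM) had intervals of the log2 ratio that include 0. Among fibril partners, Sparc, a collagen-binding glycoprotein, counted 9067 and 11110 CPM and Dcn, the proteoglycan decorin, 7372 and 9006 CPM.

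In Rhox5-positive cells 76 genes of the list were counted, 5 were higher past 2-fold and 10 lower, beside the 2.92% and 4.88% of all counted genes. The higher were Adamts2, Postn, Fbln1, Fbln2 and Itga2, all at or below 10.8 CPM. These levels and those that follow take in the gated cells of the fibroblast-like cluster, 4 in WT and 3 in KO. Levels of the list in tumour-like clusters alone are not given. The lower included fibril partners: Lum, the proteoglycan lumican, counted 98.6 CPM in WT and 11.3 in KO, Dcn 83.6 and 30.2 CPM, and Fn1, fibronectin, 150 and 59.6 CPM. Smad3, a transducer of TGF-beta, stood at 48.6 CPM in WT, with a log2 ratio of -1.08. Of the 22 counted chaperones and modifying enzymes, 1 was lower past 2-fold (Tmem38b) and 0 were higher. Serpinh1 counted 243 and 284 CPM, and P4hb, a subunit of prolyl hydroxylase, 201 and 196 CPM. In the tumour-like cells of the Rhox5-negative gate 28 genes of the list were counted, 5 higher and 5 lower past 2-fold, beside 11.4% and 24.9% of all counted genes. In macrophage-like cells 67 were counted, 0 higher and 3 lower, beside 2.49% and 2.79%. All of these shares come from 1 library per genotype and were not tested.

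Members that no class used in quantity were few in UMIs throughout. In fibroblast-like cells Col2a1, Col4a6, Col9a1, Col9a2, Col10a1, Col17a1 and Col22a1 had no UMI in either library, and in Rhox5-positive cells Col4a6, Col9a1 and Col10a1 had none. The floor of 3 UMIs over the class, a chosen value and not the exact upper limit at 0 UMIs, is 2.29 CPM in WT and 3.35 CPM in KO for fibroblast-like cells. Col25a1 had 0 UMIs in WT and 11 in KO fibroblast-like cells, and Col6a4 0 and 16 UMIs in the Rhox5-positive cells, both under the minimum for a count.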

How the data were processed

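Each library, 1 per genotype, was a droplet 3' library. The deposited matrices hold raw counts of UMIs for each gene in each barcode, after the authors' cell calling. The file header names Cell Ranger 8.0.1, whereas the submitters' processing notes name Cell Ranger 6.0.1, Seurat 4.0.3, Seurat 4.0.4 and mm10. The libraries held 113873249 (WT) and 101532711 (KO) UMIs in 9890 and 12744 barcodes. Barcodes under 200 genes or over 20% mitochondrial UMIs were left out. Scrublet called 128 WT doublets (1.31%) and 0 in KO, so 1277 KO cells (10.1%) with the highest scores were left out at the rate expected from the cell number. Cells were clustered in scanpy 1.11.5 (2000 variable genes, 30 principal components, 15 neighbours, resolution 1) and clusters were named from marker lists without collagens. UMIs of a class were summed from the counts and given as CPM, with exact Poisson, conditional binomial or Clopper-Pearson 95% intervals from scipy 1.17.1, which were tested on simulated data. Past 2-fold means a KO over WT ratio of at least 2 either way, among genes with at least 20 UMIs over both libraries; a side at 0 was set to 3 UMIs. Shares of cells with a UMI of a collagen chain were also read after thinning each cell to 2000 UMIs.

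Which erythroid and B cell markers were at 0 is not reported here. No test between genotypes was possible with 1 library each. Members at 20 CPM or more in a class, or past 2-fold with at least 50 UMIs, were named with their values, and others were named where a count of 5 or fewer was given or after their values were seen. Pathway genes were named by level per role, or past 2-fold. The members and lists were chosen with earlier results of these data known. Alternatives varied the filters, doublets, resolution, weights, thinning, denominator, gates and minimum; those on cells of the Hmga2 gate and on tumour-like clusters were chosen after seeing the data.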

Additional observations from a re-analysis of the deposited data

Results flagged for a closer look

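The collagen log2 ratio of KO over WT had opposite signs in 2 cell classes of the same libraries, and the difference was not tested. For all collagen UMIs the ratio of fibroblast-like cells exceeded that of Rhox5-positive tumour cells by 1.07 on the log2 scale. Of 17 members with 50 UMIs or more in both classes, 11 had opposite signs with both counting intervals clear of 0, all higher in fibroblast-like cells, where 3.94% of 5478 genes were. The distance reached 2 or more for 3 of them, at 4.89 for Col7a1, 3.77 for Col24a1 and 2.17 for Col12a1. These counts take in the fibroblast-like cells of the Hmga2 gate, which carried much of the KO level of these 3 chains. Without those cells the fibroblast-like levels of Col5a3, also among the 11, had counting intervals that overlap.

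Some members stood above the lymphoid level in classes outside the comparisons. Col8a2 counted 8.86 CPM (31 UMIs) in WT and 7.03 CPM (11 UMIs) in KO in NK-like cells, beside 0.79 and 0.38 CPM in the other lymphoid cells. Col27a1 counted 7.54 CPM (42 UMIs) and 15.5 CPM (60 UMIs) in conventional dendritic-like cells, beside 0.18 and 1.22 CPM in lymphoid cells. In a cluster that could not be named from the markers (17 WT and 109 KO cells), all collagen stood at 287 and 198 CPM and Col3a1 at 91.9 CPM (8 UMIs) and 39.5 CPM (23 UMIs), beside 16.5 and 12.1 CPM in lymphoid cells. None of these levels has a replicate.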

How the results depend on the processing

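The log2 ratio of all collagen in fibroblast-like cells (0.37) was 0.30 with the same doublet rate in both libraries, 0.23 with no doublets left out, 0.16 with every cell weighted the same, 0.27 with each cell thinned, 0.34 without cells that meet the Hmga2 gate and 0.63 with the fibroblast gate per cell. The count past 2-fold (6) was 12 with no minimum of UMIs. In Rhox5-positive cells (-0.71) it was -0.77 with every cell weighted the same, -0.76 thinned, -0.69 with a denominator without mitochondrial, ribosomal, haemoglobin and immunoglobulin genes, and -0.73 only in clusters with Y-linked RNA or only in tumour-like clusters. In those tumour-like clusters it was -0.48 with the cluster shares of the WT UMIs in both libraries. The count there (7) was 11 with every cell weighted the same, 2 with a higher minimum of 50 UMIs and 4 with the cluster shares of WT. In macrophage-like cells (-0.54) it was -0.39 with equal weights and -0.32 thinned, and the count (5) was 3 with no doublets left out, thinned, or with the higher minimum. The count of 19 members higher in fibroblast-like than in Rhox5-positive cells stayed within 1.5 times under the alternatives run for it.

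The Rhox5-negative Hmga2-positive gate (3.19) gave 2.88 with no doublets left out, 2.33 with equal weights, 2.67 thinned, 3.69 without the cell with most collagen in each library, 2.63 without cells with a Ptprc UMI and 0.10 with gates set after thinning. It changed sign to -0.31 in clusters with Y-linked RNA, which were the tumour-like clusters, and to -1.24 without the fibroblast-like cluster. Its count past 2-fold (17) was 11 thinned, 7 in tumour-like clusters, 5 with gates set after thinning and 8 without the fibroblast-like cluster. Single members changed sign as well. In tumour-like clusters Col3a1 was at -0.76, Col5a1 at -0.049, Col5a2 at -1.46, Col5a3 at -1.52 and Col6a3 at -2.23. With gates set after thinning Col3a1 was at -0.35, Col5a1 at -0.20, Col5a2 at -0.17, Col6a3 at -0.47, Col7a1 at -0.052, Col8a1 at 0.35 and Col16a1 at -0.49. Without the fibroblast-like cluster Col3a1 was at -1.68, Col5a1 at -2.64, Col5a2 at -4.01, Col5a3 at -2.49, Col6a3 at -3.24, Col7a1 at -0.12 and Col16a1 at -0.59. Col4a1 was at 0.10 with equal weights and Col27a1 at -1.63 thinned. In Rhox5-positive cells Col9a3 was at 0.51 thinned. The cause of these changes was not tested, apart from the choice of clusters, which leaves out the fibroblast-like cells. Over 61 results for single members and 680 pairs of a result and an alternative, 633 kept the direction. Of the 47 that did not, 8 were in fibroblast-like cells: Col1a2 (-0.18 with every cell weighted the same), Col6a6 (-0.99 thinned), and Col14a1 and Col16a1, which were near 0. In Rhox5-positive cells Col8a1, near 0, turned as well.

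No paired analysis was possible because each genotype has 1 library. Depth limits members under 20 UMIs and the 9 KO cells of the gate in tumour-like clusters, which held 68 collagen UMIs.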
